A study of Mus musculus with 12 samples.

Results

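The genes described here carry peptides of extracellular origin onto the surface of antigen-presenting cells with MHC class II molecules. They were chosen by function as 8 named rows of a panel of immune genes, namely H2-Aa, H2-Ab1, H2-Eb1, H2-DMa, H2-Ob, Cd74, Ciita and Ctss, and all 8 had a value in each of 12 mice, among 556 genes with values. RNA of the terminal ileum of male C57BL/6 mice was measured with the NanoString nCounter mouse immunology panel, in which color-coded probes that hybridize to each RNA are counted without sequencing. Mice were sacrificed at P50, given as week 7 in the labels, in 4 groups of 3. SPF control mice had a specific pathogen-free microbiota and autoclaved water alone. SPF PAT mice had the same kind of microbiota and received pulsed antibiotic treatment, which was 1 course of tylosin, a macrolide, given from day 5 of life for 5 days to litters that were still nursing, in autoclaved water. GF control mice were germ-free and received autoclaved water alone, and GF PAT mice were germ-free and received the same tylosin course. SPF mice were bred from purchased parents and germ-free mice were bred in-house, so breeding origin and microbiota cannot be told apart. Antibiotic or control was assigned at random to dams together with their litters, and the sources used here tie no mouse to a litter, cage or measurement cartridge. The p-values of group differences rest on the spread between mice of the same group, pooled over the 4 groups. Whether that includes the spread between litters is not known, and mice of 1 litter would not be independent.

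MHC class II molecules are heterodimers of an α and a β chain. H2-Aa and H2-Ab1 encode the chains of I-A, and H2-Eb1 encodes the β chain of I-E, whose α chain gene is defective in C57BL/6 mice. Cd74 encodes the invariant chain, which occupies the groove of new class II molecules and is cut away by proteases such as cathepsin S, the product of Ctss. The last fragment is exchanged for antigenic peptide by H2-DM, of which H2-DMa encodes the α chain. H2-O, of which H2-Ob encodes the β chain, inhibits H2-DM and is best known from B cells. Ciita encodes the transactivator that switches on most of these genes. B cells, dendritic cells and macrophages express class II genes constitutively, and the epithelium of the small intestine can express them too, in particular under interferon-γ.

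Promoters of class II genes share an X box and a Y box, on which the RFX and NF-Y complexes assemble and recruit CIITA. RefSeq promoter sequences (GRCm38.p6) were matched by symbol for 5 of the 8 genes, H2-Aa, H2-Eb1, H2-DMa, H2-Ob and Ctss. The 120 bases before the start are shown for the 3 class II chain genes in which GCAAC, the core letters of the X box, was followed within 60 bases by TGATTGG, the letters of a Y box, and for Ctss as the member that moved the other way. Capitals mark these letters, and in Ctss a pair of GAAA with 2 bases between them, the core of an interferon-response element.
H2-Aa, chr17:34287824-34287943, minus strand: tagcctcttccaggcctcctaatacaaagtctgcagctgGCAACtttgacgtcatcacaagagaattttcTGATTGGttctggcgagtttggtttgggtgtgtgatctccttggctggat
H2-Eb1, chr17:34305747-34305866, plus strand: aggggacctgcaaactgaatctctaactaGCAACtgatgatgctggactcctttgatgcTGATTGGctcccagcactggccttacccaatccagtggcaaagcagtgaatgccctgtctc
H2-Ob, chr17:34238785-34238904, plus strand: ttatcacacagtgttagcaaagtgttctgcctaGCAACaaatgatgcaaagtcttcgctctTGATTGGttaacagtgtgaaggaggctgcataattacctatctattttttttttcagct
Ctss, chr3:95526666-95526785, plus strand: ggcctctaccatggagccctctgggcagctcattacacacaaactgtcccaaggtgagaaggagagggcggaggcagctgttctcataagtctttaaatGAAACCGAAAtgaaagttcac

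The pair of boxes lay 26 bases apart in H2-Aa, 25 in H2-Eb1 and 23 in H2-Ob, and the Y box began 50, 61 and 59 bases before the gene start. Over all 32851 promoter windows of 300 bases in the table, searched on both strands, GCAAC was found in 35.2%, TGATTGG in 7.82%, the pair of GAAA in 3.44%, and the ordered pair within 60 bases in 0.451%. Neither of the 2 windows listed for H2-DMa held the ordered pair, and that of Ctss did not. The letters were taken from textbook descriptions of class II promoters, so the matches describe these windows and test nothing.

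Values below are log2 normalized counts as deposited, and a difference of 1 is a change of 2-fold. Groups were compared with limma over all 556 genes with Benjamini-Hochberg adjustment, and a gene was called where its adjusted p was under 0.05. Total counts were 806043 to 923395 in SPF control mice and 600308 to 681370 in the other 9 mice, before normalization. The 8 genes took 15.6% to 18.3% of all normalized counts in SPF control mice. They took 4.49% to 9.49% in SPF PAT mice, 3.69% to 6.27% in GF control mice and 5.24% to 8.05% in GF PAT mice, so the share in every SPF control mouse was above that in each of the other mice. Cd74 alone accounted for 6.83% to 7.77% of the counts in SPF control mice and 1.09% to 2.20% in GF control mice.

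Colonized and germ-free mice without antibiotic were compared first, to ask whether ileal class II genes differ between them. Of the 8 genes, 7 were called, 6 of them higher in SPF control mice by 2.96-fold to 4.63-fold and Ctss lower by 1.45-fold. The share of called genes over the panel was 42.1%, with 19.4% higher and 22.7% lower. The median difference was 1.93 over the 8 genes and 0.08 over all genes. H2-Ob was the member that was not called, at a difference of 1.39 ± 1.35 (SE, adjusted p = 0.413). In these bulk samples, fewer cells of a type and less RNA per cell cannot be told apart.

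The α chain gene H2-Aa stood at 14.74, 15.04 and 15.04 in SPF control mice 2, 7 and 8. Its values were 13.28, 12.52 and 12.87 in GF control mice 37, 38 and 39, so that the lowest colonized mouse lay well above the highest germ-free one. The difference was 2.05 ± 0.27 (SE, n = 3 per group), or 4.14-fold with a 95% confidence interval of 2.74 to 6.27 (limma, adjusted p = 0.000404). The β chain gene H2-Ab1, next to it on chromosome 17, was at 14.00, 14.29 and 14.25 in the SPF control mice and 12.44, 11.69 and 12.05 in the GF control mice. I-A chains therefore differed by nearly the same amount, with H2-Ab1 at 2.12 ± 0.29 and 4.35-fold (limma, adjusted p = 0.000603). H2-Eb1 had a smaller difference of 1.56 ± 0.27, or 2.96-fold (limma, adjusted p = 0.0017). Its 3 SPF control values of 12.64, 12.92 and 12.75 were all above the GF control values of 11.50, 10.81 and 11.31.

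The genes that handle the class II molecule on its way to the surface differed as widely. Cd74, the invariant chain, reached 15.53, 15.67 and 15.68 in SPF control mice against 13.85, 13.00 and 13.40 in GF control mice. Its difference of 2.21 ± 0.32 (4.63-fold, limma adjusted p = 0.000791) was near that of H2-DMa and became 1.81 under quantile normalization. H2-DMa, the peptide editor, stood at 11.04, 11.20 and 11.18 against 9.45, 8.65 and 8.76. The SPF control mice agreed within 0.17 on this gene, and the difference was 2.19 ± 0.33 (4.55-fold, limma adjusted p = 0.000944). Ciita, the transactivator, was at 9.63, 9.84 and 8.95 in SPF control mice and at 8.66, 7.27 and 7.03 in GF control mice. Its groups were apart by 0.28 at the nearest pair of mice, mouse 8 and mouse 37, and its difference was 1.82 ± 0.60 (3.53-fold, 95% confidence interval 1.38 to 8.99, limma adjusted p = 0.0343). The call on Ciita was lost without SPF control mouse 7 (adjusted p = 0.108), SPF control mouse 2 (0.0934), GF control mouse 39 (0.116) or GF control mouse 38 (0.111). On all 12 mice, Ciita was also not called by the methods' analysis of variance with Tukey HSD (adjusted p = 0.216).

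Ctss, the protease that trims the invariant chain, ran opposite to the chains. It was at 12.20, 12.24 and 12.44 in SPF control mice and at 12.84, 12.97 and 12.69 in GF control mice, without overlap. It was lower in SPF control mice by a log2 difference of -0.54 ± 0.13 (limma, adjusted p = 0.00887). It became -0.11 under quantile normalization, where it was not called (adjusted p = 0.405). Per mouse, Ctss minus H2-Ab1 changed by -2.66 between the groups, with p = 0.1 in an exact two-sided permutation test, which is the smallest value that 3 against 3 allows, and 0.45 after adjustment over 9 such tests of pairs. Ctss also had the smallest spread within groups among the 8, with a pooled SD of 0.14 against a median of 0.30 over all genes.

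**Figure D1:**
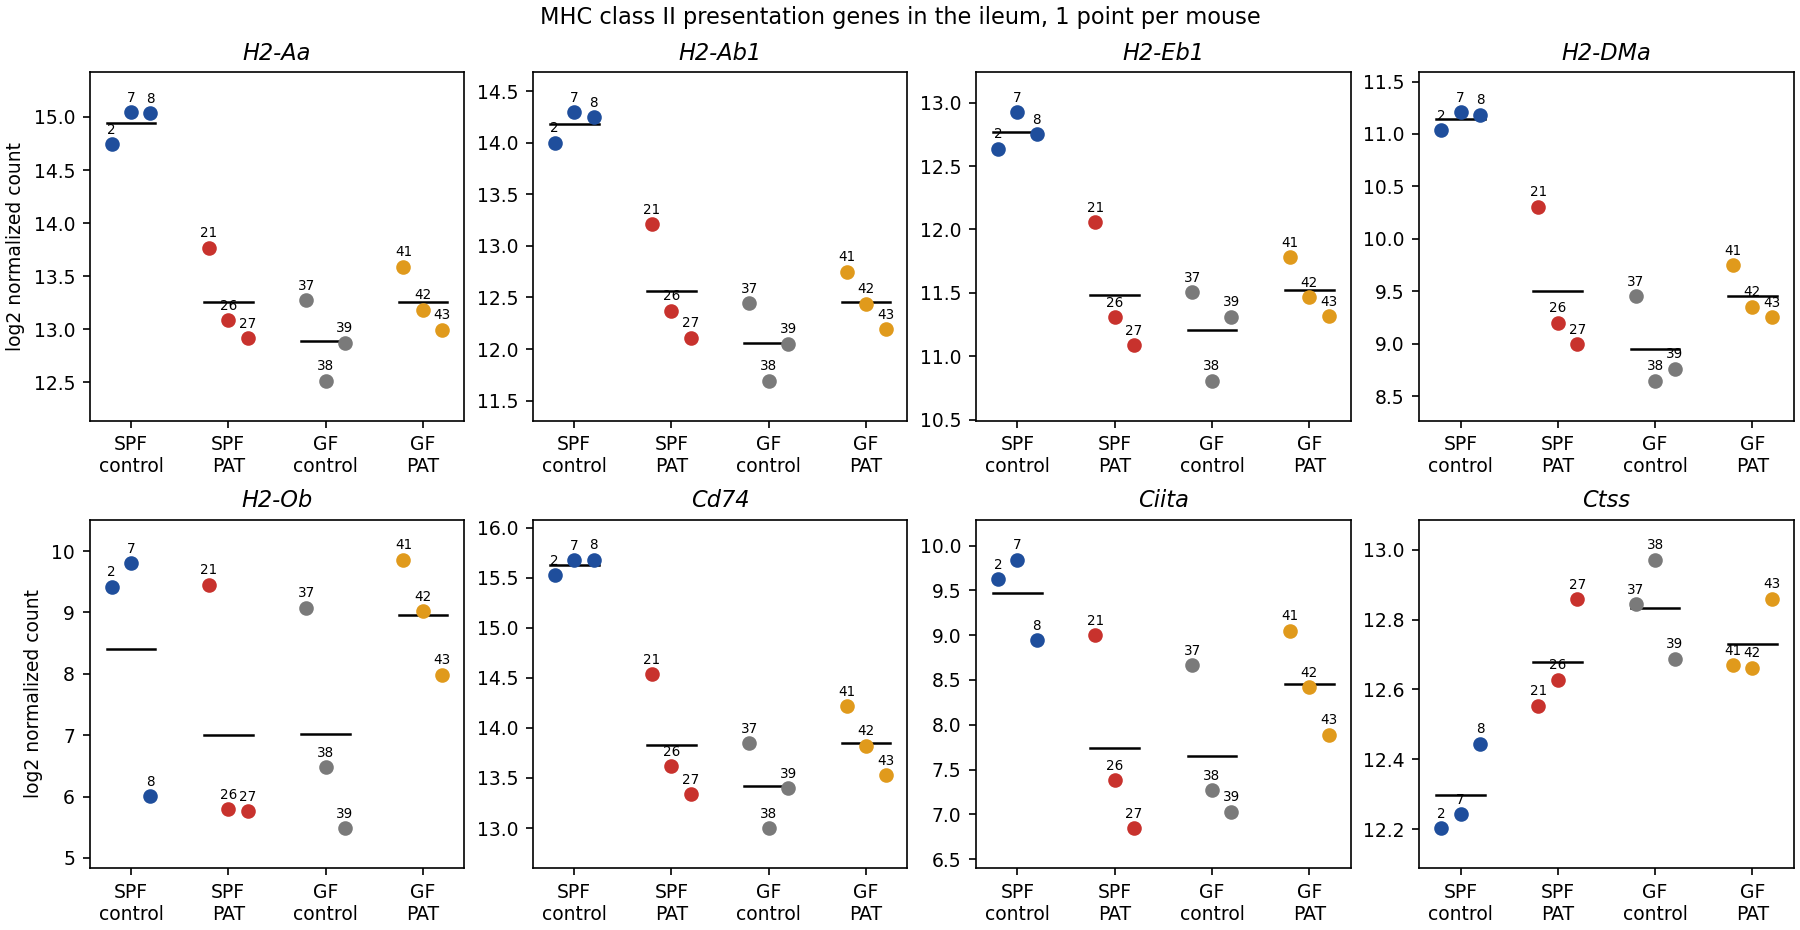
Log2 normalized counts (y axis, own scale in each panel) of the 8 genes by group (x axis), with 1 point per mouse labelled by its number and a line at the group mean. The 3 SPF control mice sit above all other mice for H2-Aa, H2-Ab1, H2-Eb1, H2-DMa and Cd74 and below them for Ctss, while H2-Ob ranges from 6.00 to 9.80 within the SPF control mice alone.

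The second comparison asked what an early tylosin course left behind in colonized mice at P50. Of the 8 genes, 5 were called, and all 5 were lower in SPF PAT mice than in SPF control mice. Over the panel 26.3% of genes were called, with 12.2% lower. The 5 were H2-Aa, H2-Ab1, H2-Eb1, H2-DMa and Cd74, which encode class II chains, the α chain of the editor and the invariant chain. The median difference was -1.63 over the 8 genes and -0.02 over all genes. This comparison and the first share the SPF control mice, so their values are given side by side and are not independent.

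H2-Aa was at 13.77, 13.08 and 12.92 in SPF PAT mice 21, 26 and 27, all below the 3 SPF control mice. It fell by 1.68 ± 0.27 on the log2 scale (3.21-fold, 95% confidence interval of the log2 difference -2.28 to -1.09, limma adjusted p = 0.00317). H2-Ab1, at 13.21, 12.37 and 12.11, fell by 1.62 ± 0.29 (3.07-fold, limma adjusted p = 0.00513). Mouse 21 was the highest SPF PAT mouse for both I-A chains, and was still 1.96-fold and 1.73-fold under the lowest SPF control mouse. H2-Eb1, at 12.06, 11.31 and 11.09, fell by 1.29 ± 0.27 (2.44-fold, limma adjusted p = 0.00833).

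Cd74 was at 14.54, 13.62 and 13.34 in the SPF PAT mice and fell by 1.79 ± 0.32 on the log2 scale (3.47-fold, limma adjusted p = 0.005). H2-DMa, at 10.31, 9.20 and 8.996, fell by 1.64 ± 0.33 (3.12-fold, limma adjusted p = 0.00829). Both genes showed the order of the chains, with mouse 21 highest and mouse 27 lowest. Cd74 was no longer called under quantile normalization (-1.10, adjusted p = 0.112), and H2-Eb1 and H2-DMa were not called by the methods' analysis of variance with Tukey HSD (adjusted p = 0.0631 for each), which left 3 of the 8 called.

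Ciita and Ctss lay just outside the threshold in this comparison. Ciita was at 9.002, 7.38 and 6.85 in SPF PAT mice, a difference of -1.73 ± 0.60 (adjusted p = 0.0584), and mouse 21 overlapped the lowest SPF control mouse at 8.95. Ctss was at 12.55, 12.63 and 12.86, above all SPF control mice, a difference of 0.38 ± 0.13 (adjusted p = 0.0543). Both were called, so that 7 of the 8 genes passed, with an intensity trend, with a mean normalized count of at least 20 and by voom on all 12 mice (adjusted p = 0.0333 to 0.0471), and by limma without SPF PAT mouse 21 (0.0129 and 0.0391). Of 7 alternatives of test or scaling, 3 left Ciita and 4 left Ctss uncalled, with adjusted p up to 0.316 and 0.356. Ctss minus H2-Ab1 changed by 2.001 between these groups (exact permutation p = 0.1, 0.45 after adjustment).

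In germ-free mice the same tylosin course gave no call. By limma 0 of the 8 genes passed, as did 0% of the panel, and 0 of the 8 had an unadjusted p under 0.05, nor did voom or the methods' analysis of variance call any of them. H2-Aa was at 13.59, 13.19 and 13.00 in GF PAT mice 41, 42 and 43, which overlapped the GF control mice, a difference of 0.37 with a 95% confidence interval of -0.23 to 0.97. H2-Ab1 was at 12.75, 12.44 and 12.19, with 0.40 (-0.26 to 1.05). The intervals of both I-A chains leave room for a rise of 1.95-fold or 2.08-fold but not for a fall of the size seen in SPF mice.

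The remaining chain and chaperone genes of the GF PAT mice also overlapped those of GF control mice. H2-Eb1 was at 11.78, 11.46 and 11.32, H2-DMa at 9.75, 9.35 and 9.26, and Cd74 at 14.21, 13.82 and 13.53. Their differences lay between 0.31 and 0.50 and were all above 0, with adjusted p = 0.693 for each by limma. Ciita, at 9.05, 8.42 and 7.89, had a difference of 0.80 ± 0.60, and H2-Ob had 1.94 ± 1.35, the largest of the 8 and the least precise. Ctss, at 12.67, 12.66 and 12.86, had -0.10 ± 0.13, which turned to 0.05 under quantile normalization.

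**Figure D2:**
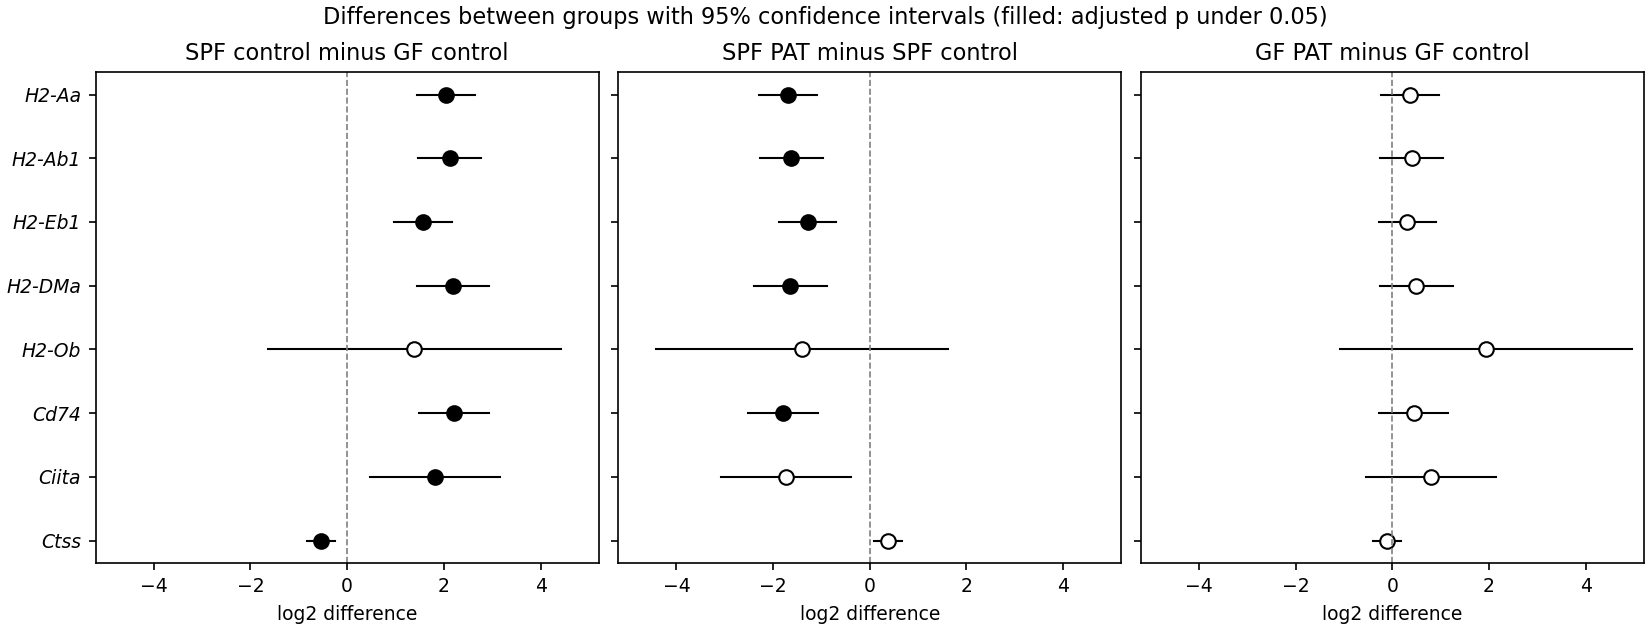
Log2 differences (x axis) of the 8 genes (y axis) in 3 comparisons, as points with 95% confidence intervals from limma, filled where the adjusted p was under 0.05. The 5 chain and chaperone genes move to 1.56 to 2.21 between SPF control and GF control mice and to -1.79 to -1.29 between SPF PAT and SPF control mice, while every interval of the germ-free comparison crosses 0.

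Whether the effect of tylosin differed between SPF and germ-free mice was tested by the difference between their effects. These mice also differed in breeding origin, so a dependence on the microbiota cannot be told apart from a dependence on origin. Of the 8 genes, 5 were called, all with a more negative effect in SPF mice, against 17.1% of the panel, 7.19% in that direction. Cd74 had -2.23 ± 0.45 (limma, adjusted p = 0.0153), H2-DMa -2.14 ± 0.47 (adjusted p = 0.0187) and H2-Aa -2.05 ± 0.38 (adjusted p = 0.012). H2-Ab1 had -2.02 ± 0.41 (adjusted p = 0.0153) and H2-Eb1 -1.60 ± 0.38 (adjusted p = 0.0228). These 5 genes thus differed in the same direction. H2-DMb2, which encodes a β chain of the peptide editor, was not called (-2.97 ± 1.71, limma adjusted p = 0.198). Ciita (-2.53 ± 0.85, adjusted p = 0.0623) and H2-Ob (-3.34 ± 1.91, adjusted p = 0.198) had larger estimates of the same sign and were not called. Ctss (0.49 ± 0.18, adjusted p = 0.0877) was not called either. Ciita was called by voom (adjusted p = 0.0458) and with a mean normalized count of at least 20 (0.0462). By limma it was also called without SPF PAT mouse 21 (0.0161) or GF control mouse 37 (0.0359). Cd74 was not called under quantile normalization (-1.64, adjusted p = 0.113). Without GF PAT mouse 41 the count fell to 3, because H2-DMa (adjusted p = 0.0523) and H2-Eb1 (0.0606) were no longer called. H2-Eb1 was also lost without SPF PAT mouse 26 or 27, SPF control mouse 7, GF PAT mouse 42 or GF control mouse 38, at adjusted p = 0.0503 to 0.0573.

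SPF PAT mice were then set against the germ-free groups. None of the 8 genes was called between SPF PAT and GF control mice, against 2.16% of the panel, or between SPF PAT and GF PAT mice, against 1.44%. None of the 8 had an unadjusted p under 0.05 in either comparison, and neither voom nor the methods' analysis of variance called one. The order of group means was SPF control first for H2-Aa, H2-Ab1, H2-Eb1, H2-DMa, Cd74 and Ciita, with GF control last and the means of SPF PAT and GF PAT between them. For H2-Aa those 2 means were 13.26 and 13.26, with a difference of -0.00 and a 95% confidence interval of -0.60 to 0.60. The interval of SPF PAT minus GF control was -0.23 to 0.97 for H2-Aa and -0.20 to 1.30 for H2-DMa, so that a level up to 2.46-fold higher in H2-DMa lay within the interval. For H2-Ob it was -3.04 to 3.01. For Ctss the order was reversed, with GF control at 12.83, GF PAT at 12.73, SPF PAT at 12.68 and SPF control at 12.30, of which the first 3 did not differ beyond their spread.

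H2-Ob behaved unlike its 7 companions. It was at 9.42 and 9.80 in SPF control mice 2 and 7 but at 6.00 in mouse 8, and at 9.45 in SPF PAT mouse 21 but at 5.79 and 5.76 in mice 26 and 27. In germ-free mice it was at 9.08, 6.48 and 5.49 without tylosin and at 9.86, 9.02 and 7.98 with it. Single mice of the same group therefore differed by up to 13.9-fold, and the pooled SD of 1.82 was the 10th largest of the 556 genes. Ciita, at 0.81 the 72nd largest, came next among the 8, and the 5 chain and chaperone genes had 0.34 to 0.44. A difference in H2-Ob smaller than these spreads was not detectable, and its difference of 1.39 between SPF and GF control mice became 2.59 without SPF control mouse 8 (limma, adjusted p = 0.128) and 0.63 without GF control mouse 39 (adjusted p = 0.762).

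The spread of H2-Ob went with that of B cell genes. The sources used here do not give whether Peyer's patches, the lymphoid follicles of the ileum, were part of the pieces taken for RNA. Over 9 measured B cell genes, the mean log2 value was 8.60 and 8.81 in SPF control mice 2 and 7 and 5.59 in mouse 8. It was 8.58 in SPF PAT mouse 21 against 4.98 and 4.50 in mice 26 and 27, 7.99 in GF control mouse 37 against 5.85 and 4.77 in mice 38 and 39, and 8.70, 7.998 and 7.12 in GF PAT mice 41, 42 and 43. The widest gaps between mice thus lay within 3 of the 4 groups. The order of the 3 mice by H2-Ob equalled the order by the B cell mean in 4 of 4 groups, as it did for Ciita, against 2 of 4 for the 5 chain and chaperone genes and 0 of 4 for Ctss. The mouse with the highest B cell mean was also the highest in 4 of 4 groups for H2-Aa, H2-Ab1, H2-Eb1 and H2-DMa, in 3 of 4 for Cd74 and in 0 of 4 for Ctss. Among the genes most like H2-Ob over the 12 mice were Cd22, H2-DMb2, Ms4a1 and Cxcr5, with Pearson correlations of 0.987 to 0.996, and of 0.987 to 0.996 after each group's mean was removed. These are descriptions over mice that share a panel and a normalization.

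The mice that stood apart in B cell genes within their groups are described one by one. In SPF control mouse 8, the low one, Ms4a1, which encodes CD20 of B cells, was 24.9-fold below the mean of the other two SPF control mice. H2-Ob was 12.2-fold below it and Ciita 1.73-fold. H2-Aa, H2-Ab1, H2-DMa and Cd74 of the same mouse were 1.04-fold to 1.11-fold above the mean of those mice, and H2-Eb1 was 1.02-fold below it. SPF PAT mouse 21, a high one, was above the other two SPF PAT mice by 59.1-fold in Ms4a1, 12.8-fold in H2-Ob and 3.70-fold in Ciita, and also by 2.31-fold in H2-DMa, 2.08-fold in Cd74 and 1.96-fold in H2-Ab1. GF control mouse 37 was likewise above its group in Ms4a1 (14.5-fold), H2-Ob (8.53-fold), H2-DMa (1.68-fold), Cd74 (1.57-fold) and H2-Ab1 (1.48-fold). GF PAT mouse 41 was above its group by 2.56-fold in H2-Ob, 1.45-fold in Cd74 and 1.35-fold in H2-Ab1. The chains thus moved with the B cell genes in these 3 mice and not in mouse 8, and in all 4 by less than H2-Ob. The same mice stood apart in the mean log2 value of 14 T cell genes. That mean was 6.27 in mouse 8 against 6.91 and 7.10 in mice 2 and 7, and 6.33 in mouse 21 against 4.997 and 4.78. In mouse 37 it was 5.85 against 4.59 and 4.81, and in mouse 41 it was 6.12 against 5.69 and 5.24. The part of B cells or T cells in the class II values was not tested.

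The counts of calls were also taken without these mice. Between SPF and GF control mice 7 genes were called without mouse 8 and 7 without GF control mouse 37, and between SPF PAT and SPF control mice 6 were called without mouse 8 and 7 without mouse 21. The B cell list was not tested as a whole, and its medians had the same signs as those of the 8 class II genes. The median difference of the B cell genes was 1.24 between SPF and GF control mice and -1.59 between SPF PAT and SPF control mice. Of the 9 B cell genes, Blnk, an adaptor of the B cell receptor, was the only one called in each (0.42 and -0.46). Their summed counts ranged from 1296 to 7161 in SPF control mice, 886 to 6185 in SPF PAT mice, 924 to 3808 in GF control mice and 2132 to 6134 in GF PAT mice, and none of the 4 groups was apart from the other 3. In GF PAT against GF control mice the median was 2.08 for B cell genes and 0.42 for the 8 class II genes, with 0 of 9 and 0 of 8 called. Of 11 follicle genes, 1 was called in the first comparison (Bcl6, a germinal center repressor, at -0.65) and 0 in the second, with medians of 1.38 and -1.51. Over the panel 42.1% of genes were called in the first comparison and 26.3% in the second.

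**Figure D3:**
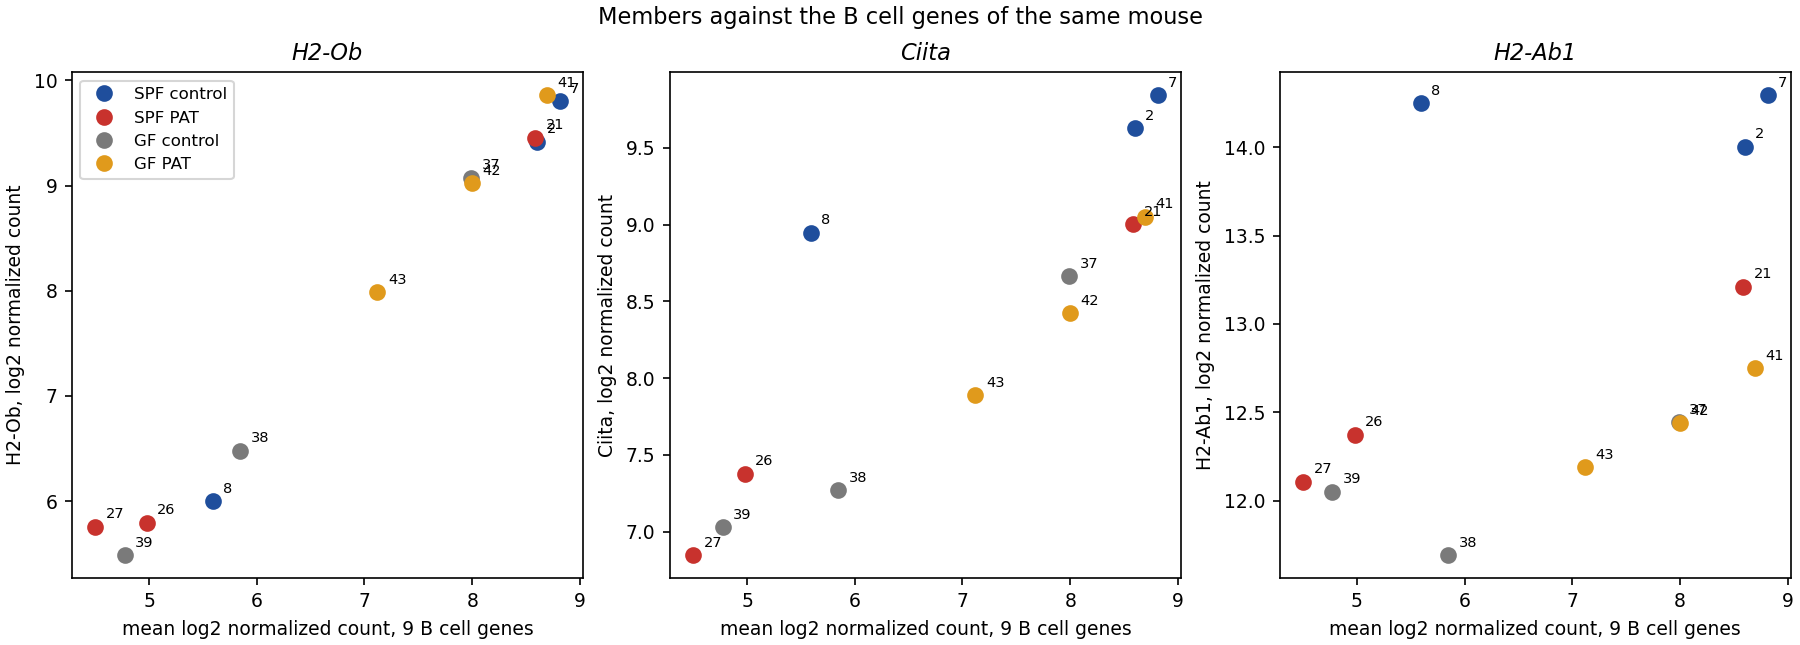
Log2 normalized counts of H2-Ob, Ciita and H2-Ab1 (y axes) against the mean log2 value of 9 B cell genes in the same mouse (x axis), with 1 point per mouse, colored by group and labelled by mouse number. H2-Ob rises with the B cell genes across all groups, while H2-Ab1 is at 14.25 in SPF control mouse 8, where the B cell mean is 5.59, and at 12.75 in GF PAT mouse 41, where it is 8.70.

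Markers of the myeloid cells that can present antigen were called in 2 of 12 between the control groups, against 42.1% of the panel. Between SPF PAT and SPF control mice 1 of 12 was called, against 26.3%. Of 12 macrophage and dendritic cell genes, Itgam, an integrin chain of myeloid cells, was higher in SPF control than GF control mice (1.26, limma adjusted p = 0.00629) and lower in SPF PAT than SPF control mice (-0.90, adjusted p = 0.044). Cd163, a scavenger receptor of macrophages, was lower in SPF control mice (-1.02), and the other 10 were not called in either comparison. The medians of this list were 0.34 and -0.18. Its summed counts were 3371 to 3560 in SPF control mice, 2240 to 3172 in the 6 SPF PAT and GF control mice and 2571 to 2989 in GF PAT mice. By this sum every SPF control mouse was above each of the other mice. The same held for the mean log2 value, 7.19 to 7.40 in SPF control mice and at most 7.13 elsewhere. Of 8 epithelial genes, 5 fell and 1, Pigr, the transporter of IgA, rose (0.77) in SPF control relative to GF control mice, and 5 rose in SPF PAT relative to SPF control mice. Panel shares were 22.7% lower and 19.4% higher in the first comparison, and 26.3% in either direction in the second. Abcb1a, a drug efflux pump, had the largest values in both, at -2.82 and 1.76. The part of these cell types in the class II values was not tested.

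T cell genes led the genes that were most like the mean of the 8 class II genes over the 12 mice. Ctss entered this mean with its own sign, opposite to the chains. Of 14 T cell genes measured, 9 were called higher in SPF control than GF control mice and 7 were called lower in SPF PAT than SPF control mice, with medians of 1.90 and -1.38. Over the panel 19.4% of genes were called higher in the first of these comparisons and 12.2% lower in the second. The largest called values belonged to Cd6, a coreceptor (2.21), and Cd5, a negative regulator of receptor signaling (-2.43). The 5 genes outside the 8 that were most like the mean of their standardized values were Cd3e, Cd3d, Cd48, Cd247 and Cd8a, with Pearson correlations of 0.969 to 0.984 and Spearman correlations of 0.965 to 0.993 over 12 mice. After each group's mean was removed, the correlations were 0.911 to 0.956. Of these, 4 encode parts of the T cell receptor complex or its coreceptor, and Cd48 encodes an adhesion molecule of leukocytes. Taken gene by gene, the closest gene outside the 8 was Tap1, of the class I pathway, for H2-Aa (0.983) and H2-Ab1 (0.977). It was Zap70, of the T cell list, for H2-Eb1 (0.976), and Cd8a for H2-DMa (0.982) and Cd74 (0.976). For Ctss the most similar were App, Btnl1, Ifngr1, Ifnar1 and Prkcd, a different set.

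A list of genes that act on Ciita or belong to the interferon-γ pathway, including chemokines that the pathway induces, was measured for 19 of 22 members. In SPF control against GF control mice 8 were higher and 5 lower, and in SPF PAT against SPF control mice 8 were lower and 4 higher, with medians of 0.41 and -0.39. Of the panel, 19.4% were called higher and 22.7% lower in the first comparison. In the second 26.3% were called, with 12.2% lower. Irf1, a Ciita activator, had 0.54 and -0.76 (limma, adjusted p = 0.00887 and 0.00445), and Socs1, which damps interferon signaling, had 1.03 and -1.08 (adjusted p = 0.00326 and 0.00545). Irf4, a lymphocyte transcription factor, rose most between control groups (2.44), and was the only gene of the list still higher in SPF PAT than GF control mice (1.22). Cxcl9, a chemokine induced by interferon-γ, fell most in SPF PAT mice (-1.56), while Cxcl11, a related chemokine, moved the other way in both comparisons (-2.03 and 1.66).

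A difference in Ifng itself was not detectable at this depth. Its log2 values were between 1.69 and 3.80, a few counts per mouse, and its differences were 0.04 and -0.12 (limma, adjusted p = 0.949 and 0.839). Ifngr1, a chain of the receptor, was lower in SPF control mice (-1.01) and higher in SPF PAT mice (0.75). Among partners of the class II pathway, 6 of 20 listed were on the panel. Cd80, which costimulates T cells, was the only one called between the control groups (0.78, limma adjusted p = 0.0338), and 0 of 6 were called in the second comparison. Called genes made up 42.1% and 26.3% of the panel in these comparisons. H2-Ea-ps, the defective I-E α gene, lay between 2.22 and 4.41 over all mice and had a difference of 0.03 (adjusted p = 0.943).

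The class II region of chromosome 17 also holds genes of the class I pathway, which supply peptides from inside the cell. In RefSeq the order is H2-DMa, H2-DMb2, H2-DMb1, Psmb9, Tap1, Psmb8, Tap2, H2-Ob, H2-Ab1, H2-Aa and H2-Eb1, and 8 of these were measured. Tap1, a chain of the peptide transporter, was at 10.47, 10.68 and 10.82 in SPF control mice and at most 9.49 elsewhere. It was higher than in GF control mice by 1.87 and fell by 1.47 in SPF PAT mice (limma, adjusted p = 0.000166 and 0.00176). Psmb9, an immunoproteasome subunit, had 1.51 and -1.27 (adjusted p = 0.00016 and 0.00109). In mouse 8, both genes were at the highest value of all 12 mice, 10.82 and 9.71. H2-DMb2, a β chain of the peptide editor beside H2-DMa, was instead at 9.79, 10.07 and 6.88 in SPF control mice and was not called (1.34 and -1.37, adjusted p = 0.379 and 0.391).

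Neighboring genes of the region did not all vary alike. H2-DMa, Psmb9, Tap1, H2-Ab1, H2-Aa and H2-Eb1 were called in both comparisons. H2-Ob and H2-DMb2 ranked the mice within groups as the B cell genes did, in 4 and 3 of the 4 groups. Of the 10 class I genes measured, Tap1 and Psmb9 were the only ones called lower in SPF PAT than SPF control mice. The median of that list was -0.19 between control groups, where 2 were higher and 2 lower, H2-Q10 furthest at -1.48, and 0.04 in the second comparison. Panel shares were 19.4% higher and 22.7% lower between control groups, and 12.2% lower in the second comparison. H2-K1, a class I heavy chain, had -0.12 and -0.07 and B2m, the light chain of all class I molecules, 0.20 and -0.12, none of them called (adjusted p = 0.183 to 0.756). Class I and class II lists were not tested against each other.

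**Figure D4:**
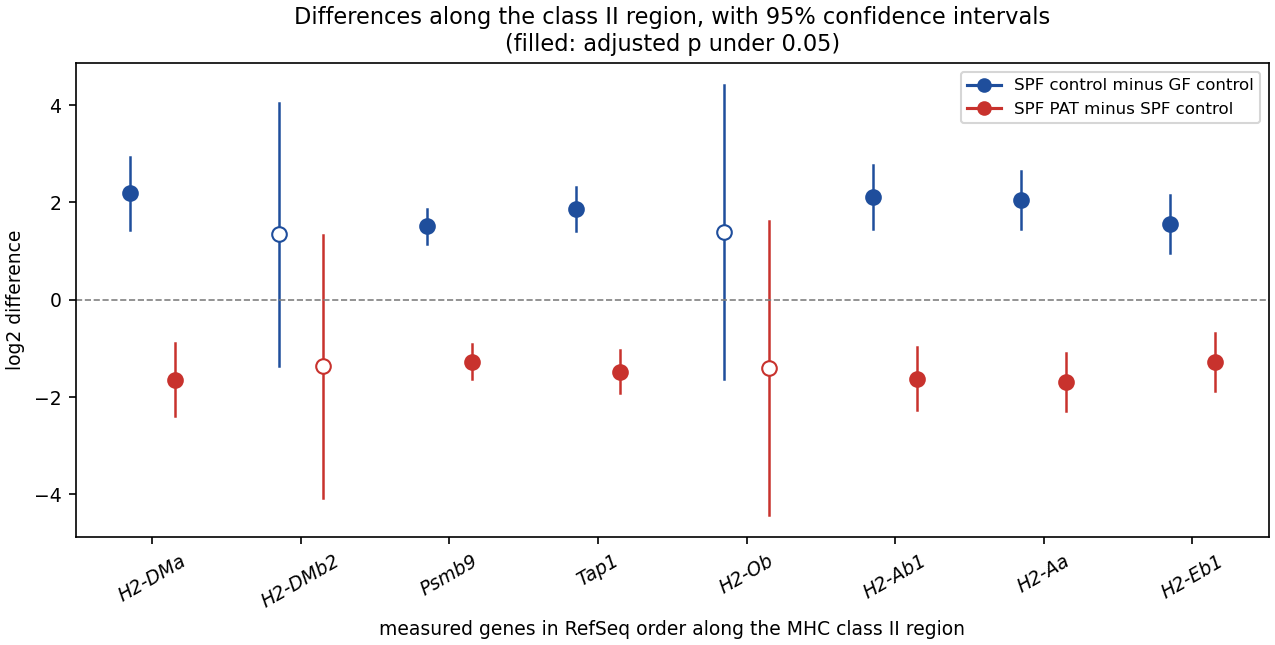
Log2 differences (y axis) with 95% confidence intervals of the 8 measured genes of the class II region in their RefSeq order (x axis, not to scale), for SPF control minus GF control and SPF PAT minus SPF control mice, filled where the adjusted p was under 0.05. H2-DMb2 and H2-Ob have wide intervals across 0 in both, at 1.34 and 1.39 and at -1.37 and -1.40, and the other 6 genes are called in both.

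Pairs of members that act on each other were compared within each mouse, since their separate levels come from probes of unequal strength. H2-Ob minus H2-DMa, the inhibitor against its target, changed by -0.80 between SPF and GF control mice, by 0.24 with PAT in SPF mice and by 1.44 with PAT in GF mice (exact permutation p = 0.7, 0.9 and 0.2). Ciita minus Cd74, the transactivator against a target gene, changed by -0.39, 0.06 and 0.36 (exact permutation p = 0.4, 1 and 0.4). With 3 mice against 3 the smallest p of this test is 0.1, so it cannot show whether the genes of a pair change alike. The changes ranged widely with single mice. In the F-test over the 4 groups 6 of the 8 genes were called, all but Ciita (adjusted p = 0.107) and H2-Ob (adjusted p = 0.5), against 33.1% of the panel.

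Scaling moved the panel as a whole. Centring each mouse on its median moved the median over all genes from 0.08 to -0.36 between control groups and from -0.02 to 0.34 between SPF PAT and SPF control mice. With this centring H2-Aa was at 1.61 and -1.33 in these comparisons and was still called in both.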

How the data were processed

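Ileal RNA of 12 mice, 3 in each of 4 groups named in the sample labels, was measured by probe counting on the nCounter system. Normalization of the counts by DESeq2 was done by the authors, who deposited log2 values, which are used here as deposited, with no pseudocount and no filter. Of 584 entries, 556 genes had values and 28 reference genes and control probes had none. Multiplied by a size factor of 0.830 to 1.25, all values of a mouse became whole counts to within 0.01, and 1 to 8 genes per mouse were at a count of 0. The labels name TRIzol with an RNeasy column for the RNA, and the methods another kit.

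Group means were compared with limma 3.58.1 (lmFit and eBayes, R 4.3.3) in 1 model of all 12 mice without covariates. The spread of a gene was thus pooled over the groups. Group SDs could differ, as for Cd74 with 0.09 in SPF control and 0.63 in SPF PAT mice. P-values were two-sided and adjusted over 556 genes by the Benjamini-Hochberg method per comparison, with a threshold of 0.05, and adjusted p-values are from limma unless another test is named. Differences between 2 genes within a mouse were compared by an exact permutation test over mice (scipy 1.17.1). The limma step was tested on simulated data.

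The 8 genes and all gene lists were chosen with earlier results of these data known. Genes of the lists were named where they had the largest rise or fall past the threshold, with Ifng, Irf1, Socs1, H2-Ea-ps and the 5 genes most like the mean of the 8. Other genes were named after their values were seen, and some genes are not reported here. The alternatives were the methods' Tukey HSD, an intensity trend, only the 2 groups compared, a mean normalized count of at least 20, median centring, quantile normalization, voom on recovered counts, a log2 difference of at least 1, and leaving out each mouse.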

Additional observations from a re-analysis of the deposited data

Results flagged for a closer look

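The effect of tylosin differed between SPF and germ-free mice in 5 of the 8 class II genes, by the interaction term of the limma model at an adjusted p under 0.05. Over the panel 17.1% of genes were called by this term, 7.19% in the direction of the 5. SPF and germ-free mice also differed in breeding origin, which cannot be told apart from the microbiota. For Cd74 the effect was -1.79 in SPF mice and 0.44 in GF mice, a difference of -2.23, which under quantile normalization was -1.64 and not called (adjusted p = 0.113). H2-DMa had effects of -1.64 and 0.50 and a difference of -2.14. The chains of I-A differed by -2.05 (H2-Aa, with effects of -1.68 and 0.37) and -2.02 (H2-Ab1, with -1.62 and 0.40), and H2-Eb1 differed by -1.60 (with -1.29 and 0.31). In each of the 5 genes all SPF PAT mice were below all SPF control mice, while GF PAT and GF control mice overlapped. The share of the panel with such a gap is not reported here, so the gap cannot be read as particular to these 5. That gap in SPF mice is part of what the interaction term measures, so it is no separate support. B cell genes moved the same way without a call, with a median difference between the effects of -3.70 and 0 of 9 called, and 4 of 14 T cell genes were called in the same direction. Their part in the class II values was not tested.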

How the results depend on the processing

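No paired analysis was possible because the labels number the mice without sharing a number between groups. The count of class II genes called between SPF and GF control mice was 6 or 7 under every alternative. Between SPF PAT and SPF control mice it was 3 by the methods' Tukey HSD and 5 to 7 otherwise. For the difference between PAT effects it was 4 to 6 over the alternatives and 3 to 6 when each mouse was left out, 3 being without GF PAT mouse 41. In the germ-free comparison and in both comparisons of SPF PAT with germ-free mice it was 0 throughout. Of the values of single genes, 839 kept their direction and their side of the threshold, 15 gained a call, 17 lost one and 33 changed sign, and the cause of these changes was not tested. No called value changed sign.

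The sign changes were in values that were not called. Under quantile normalization, Ctss became 0.051 between GF PAT and GF control mice and 0.018 between SPF PAT and GF control mice, and Ciita minus Cd74 became -0.49 between SPF PAT and SPF control mice. With voom, H2-Ob became 0.075 between SPF PAT and GF control mice. Between SPF PAT and GF PAT mice, median centring gave 0.10 for H2-Aa, 0.068 for H2-Eb1, 0.082 for Cd74 and 0.053 for Ctss, and quantile normalization gave 0.0015 for H2-Aa, 0.0101 for H2-Eb1 and 0.17 for Cd74. When each mouse was left out of SPF PAT minus GF control, H2-Eb1 ranged from -0.011 to 0.48, H2-Ob from -1.24 to 1.02 and Ciita from -0.54 to 0.59. For SPF PAT minus GF PAT the ranges were -0.26 to 0.17 for H2-Aa, -0.22 to 0.33 for H2-Ab1, -0.32 to 0.16 for H2-Eb1, -0.35 to 0.30 for H2-DMa, -0.37 to 0.22 for Cd74 and -0.14 to 0.014 for Ctss. H2-Ob minus H2-DMa ranged from -1.46 to 0.43 between SPF and GF control mice and from -0.99 to 0.90 between SPF PAT and SPF control mice, where Ciita minus Cd74 ranged from -0.22 to 0.27. A fit of only the groups compared could not be made for the difference between effects or the F-test. With 3 mice per group the exact test of pairs cannot reach 0.05.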
